A study of Rattus norvegicus with 8 samples.

Results

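The miRNAs described here are the epithelial miRNAs rno-miR-182, rno-miR-183-5p, rno-miR-96-5p, rno-miR-203a-3p, rno-miR-200a-3p, rno-miR-200b-3p, rno-miR-200c-3p, rno-miR-141-3p, rno-miR-429 and rno-miR-205, written without the rat prefix from here on. They were chosen by name among the rat miRNA rows of a small RNA sequencing table, and 8 of the 10 names had a row, out of 415 rat mature names and 1512 rows in all. miR-141-3p and miR-429 matched no row and were not analysed here. The RNA was that of exosomes, membrane vesicles shed by cells into their surroundings, from 2 cell types of the rat intervertebral disc. Progenitor cells of the nucleus pulposus (NPPC), the soft centre of the disc, gave 4 libraries, and nucleus pulposus cells (NPC) gave the other 4. The labels name no strain, age, genotype or treatment for either group, and leave unsaid whether each library had its own animal or culture. The p-values therefore set the group difference against library-to-library spread, which is possibly only technical.

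Epithelial cells are known for a small set of miRNAs that hold the epithelial state. The miR-200 family (miR-200a, miR-200b, miR-200c, miR-141 and miR-429) represses the transcription factors Zeb1 and Zeb2, which switch off E-cadherin when cells become mesenchymal. miR-203 restrains the stem cell factor p63 in skin, miR-205 is a miRNA of stratified epithelia that also represses the Zeb factors, and miR-183, miR-96 and miR-182 are made from a single cluster best known from hair cells of the ear, photoreceptors and other sensory cells. Nucleus pulposus cells descend from the notochord and can carry epithelial-type keratins, but disc cells in culture are mesenchymal in most of their markers.

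The sequences below are those of the deposited rows, written 5′ to 3′ as DNA letters with the seed, bases 2 to 8, in capitals, because the seed groups the members by the targets they can pair with. The first 3 come from the 5′ arm of their hairpins, as does miR-205.
miR-182: tTTGGCAAtggtagaactcacacc
miR-96-5p: tTTGGCACtagcacatttttg
miR-183-5p: tATGGCACtggtagaattcact
miR-200b-3p: tAATACTGcctggtaatgatga
miR-200c-3p: tAATACTGccgggtaatgatgga
miR-200a-3p: tAACACTGtctggtaacgatgtt
miR-203a-3p: gTGAAATGtttaggaccactag
miR-205: tCCTTCATtccaccggagtctg

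miR-200b-3p and miR-200c-3p carried the same seed and were identical at 20 of 22 positions counted from the 5′ end, with T11G and A22G as the differences of miR-200c-3p from miR-200b-3p. miR-200a-3p had another seed, set apart from that of miR-200b-3p by C4T, where the first letter is that of miR-200a-3p. The RefSeq entry of miR-141-3p (assembly GRCr8), shown to place the member without a row, has the seed of miR-200a-3p.
miR-141-3p: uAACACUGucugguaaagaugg
In the cluster, miR-182 and miR-96-5p shared bases 2 to 7, while miR-183-5p differed from miR-182 within the seed by T2A and A8C, where the first letter is that of miR-182. Over 22 positions miR-182 and miR-183-5p were identical at 18. Of the 8 rows, 2 (miR-183-5p and miR-203a-3p) had the exact length of the table's reference miRNA. The other 6 rows began at the same base and were longer or shorter at the 3′ end by at most 2 bases, so their seeds were unaltered. Each sequence occurred in 1 row, so no member shared its row sequence with another miRNA name, although reads of miR-200b-3p and miR-200c-3p differ at few bases.

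The deposited table places the hairpins of miR-182, miR-96 and miR-183 on the minus strand of chromosome 4, from 57459712 to 57463678, a stretch of 3967 bases. Those of miR-200a and miR-200b lie on the minus strand of chromosome 5 from 173489366 to 173490239, within 874 bases. miR-200c is on chromosome 4 from 157236772 to 157236877, minus strand, miR-203a on chromosome 6 from 136704960 to 136705057, plus strand, and miR-205 on chromosome 13 from 112233283 to 112233390, minus strand. These are coordinates of the deposited table, whose genome build is not given in the sources used here.

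All members were rare in both kinds of exosome. Summed over the 8 members, NPPC libraries held 136, 265, 207 and 187 counts in replicates 1 to 4, against 26, 90, 118 and 68 counts in NPC replicates 1 to 4. As a share of the library this was 0.0143% to 0.0243% in NPPC and 0.0079% to 0.0173% in NPC exosomes. The mesenchymal list of 5 miRNAs (miR-199a-5p, miR-199a-3p, miR-214-3p, miR-143-3p and miR-145-5p) summed to 185234 to 200939 CPM (counts relative to the TMM-scaled library size) in NPPC libraries and 127584 to 217998 CPM in NPC libraries, while the 8 epithelial members together summed to 169 to 276 CPM and 43.4 to 202 CPM. By mean level over the 8 libraries miR-182 was the most abundant member, at rank 224 of 415 rat names with 33.1 CPM, followed by miR-203a-3p at rank 227 with 31.3 CPM. The ranks of miR-205, miR-200b-3p, miR-200a-3p, miR-183-5p and miR-200c-3p were 246, 247, 251, 257 and 281, and miR-96-5p stood last at rank 340 with 3.56 CPM. In this order, neighbours from miR-182 to miR-200c-3p differed by less than the SD of either in NPC libraries, while miR-96-5p lay below miR-200c-3p by more than its own SD in both groups. In exosome RNA fewer vesicles from a kind of cell and fewer copies per vesicle cannot be told apart.

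**Figure D1:**
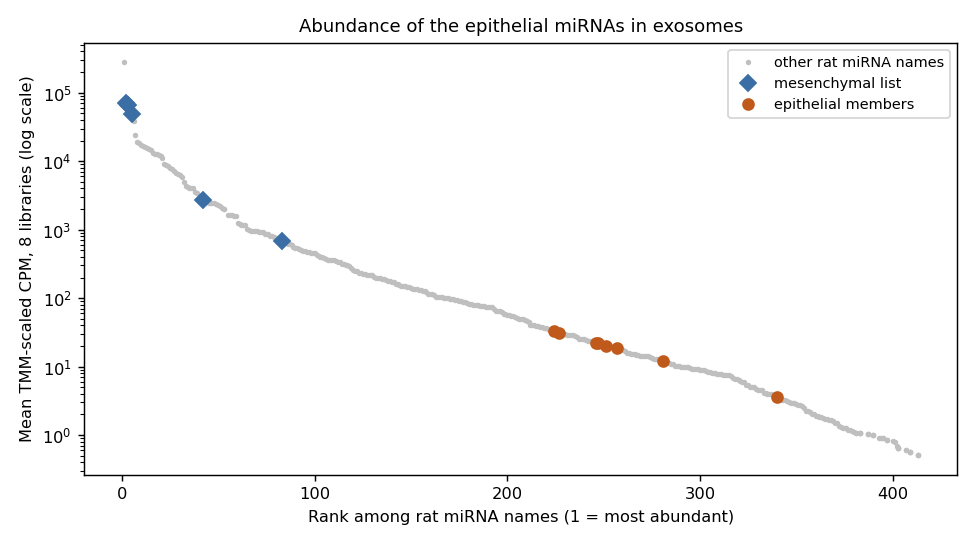
Mean TMM-scaled CPM over the 8 libraries (vertical, log scale) against the rank among 415 rat miRNA names (horizontal), with the 8 epithelial members as circles and the 5 mesenchymal miRNAs as diamonds. The epithelial members sit between ranks 224 and 340, from 33.1 down to 3.56 CPM, to the right of all 5 mesenchymal miRNAs.

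Library depth moved with the groups. NPPC libraries held 819845 to 1416940 counts and NPC libraries 329011 to 681591. No member had a count between 0 and 5, the smallest value above 0 being 5, which equals 4.08 to 6.35 TMM-scaled CPM in NPPC libraries and 8.04 to 9.18 CPM in NPC libraries, so a member at a given level is listed more readily in NPPC exosomes, and reads may exist behind a listed 0. NPC replicate 1, the shallowest library, also stood apart from the rest. Its TMM factor was 1.83, with the other libraries between 0.837 and 1.02, and the Spearman correlation of GC percent with the deviation of 278 rat names from their mean was 0.856, with the other libraries between -0.62 and -0.041. That library listed 4 members at 0, miR-182, miR-183-5p, miR-96-5p and miR-203a-3p, with GC contents of 45.8%, 40.9%, 38.1% and 40.9%. Those it listed above 0, miR-200a-3p, miR-200b-3p, miR-200c-3p and miR-205, had 39.1%, 36.4%, 43.5% and 54.5%. The part of depth and of GC content in the results below was not tested beyond the values given.

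Presence differed by member. In NPPC exosomes 6 of the 8 members were listed in every library, and in NPC exosomes 3 were, namely miR-200a-3p, miR-200b-3p and miR-205. miR-182 and miR-203a-3p missed the NPC count only through NPC replicate 1. Over all rows of the table, 617, 794, 801 and 729 were above 0 in NPPC replicates 1 to 4. In NPC replicates 1 to 4 they were 557, 696, 723 and 887. The share of all features listed in every library of a group was not computed, so the member counts are not read as particular to them. All 8 were listed in at least 1 library of each group. At a level of 15.2 CPM of the total count, which is 5 counts in the shallowest library, the numbers were 3 in NPPC (miR-182, miR-203a-3p and miR-200a-3p) and 1 in NPC exosomes (miR-200b-3p). This level was added after the data were seen.

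Of the 3 sets of members, the sensory cluster came first by summed level in NPPC replicates 1, 3 and 4, and also in NPC replicate 4. Its lead over the miR-200 family was small in NPPC replicate 3, at 60.3 against 57.9 CPM, and in NPPC replicate 4, at 63.02 against 54.8 CPM. miR-182, which represses Foxo1 in other mammalian cells, had 42, 48, 43 and 43 counts in NPPC replicates 1 to 4, against 0, 13, 27 and 11 counts in NPC replicates 1 to 4. Scaled by TMM these were 53.3, 50.01, 35.1 and 39.3 CPM in NPPC libraries, and 0, 20.9, 46.1 and 20.2 CPM in NPC libraries. NPC replicate 3 lay within the NPPC range and the other NPC libraries below it, so the groups overlapped. The means were 44.4 ± 8.65 CPM in NPPC and 21.8 ± 18.9 CPM in NPC exosomes (SD, n = 4 each). In edgeR's quasi-likelihood test the log2 fold change of NPPC over NPC was 1.02 ± 0.85 (SE), with a 95% interval from -0.94 to 2.98 and a Benjamini-Hochberg adjusted p of 0.583. miR-182 did not pass, and without NPC replicate 1 its log2 fold change was 0.57 (adjusted p = 0.388 by the same edgeR test). Without NPC replicate 3 it was 1.68 (edgeR adjusted p = 0.418). Counting error alone would give an SD of 6.61 CPM in NPPC and 6.08 CPM in NPC libraries at these depths, so the NPPC libraries varied 1.31 times as much as that and the NPC libraries 3.11 times.

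miR-183-5p, made from the same cluster, had 27, 30, 31 and 14 counts in NPPC replicates 1 to 4, against 0, 0, 17 and 10 counts in NPC replicates 1 to 4. It was listed in every NPPC library and in NPC replicates 3 and 4. The levels were 12.8 to 34.3 CPM in NPPC and 0 to 29.1 CPM in NPC libraries, with means of 25.9 ± 9.51 and 11.9 ± 14.4 CPM (SD, n = 4 each). The log2 fold change was 1.12 ± 1.14 (SE), its 95% interval ran from -1.49 to 3.74, and the adjusted p by edgeR was 0.651. It did not pass without NPC replicate 1, at a log2 fold change of 0.69, nor without NPC replicate 3, at 2.08. miR-96-5p, mutations of whose seed cause hearing loss in mice and people, had 0, 8, 0 and 12 counts in NPPC libraries and 0, 0, 0 and 5 counts in NPC libraries. It did not pass the filter on low counts and was not tested. Fitted without the filter, its log2 fold change was 1.10 ± 2.35 (SE) with an edgeR adjusted p of 0.816.

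Summed over miR-182, miR-183-5p and miR-96-5p, the cluster stood at 87.6, 89.6, 60.3 and 63.02 CPM in NPPC replicates 1 to 4, against 0, 20.9, 75.2 and 47.7 CPM in NPC replicates 1 to 4. NPC replicate 3 again lay inside the NPPC range. The log2 ratio of the group means was 1.06 with all libraries and 0.65 without NPC replicate 1, a description with no test. Over the 8 libraries the log2 CPM of miR-182 and miR-183-5p had a Pearson correlation of 0.78, and 0.70 without NPC replicate 1. These points share each library's depth and scaling.

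**Figure D2:**
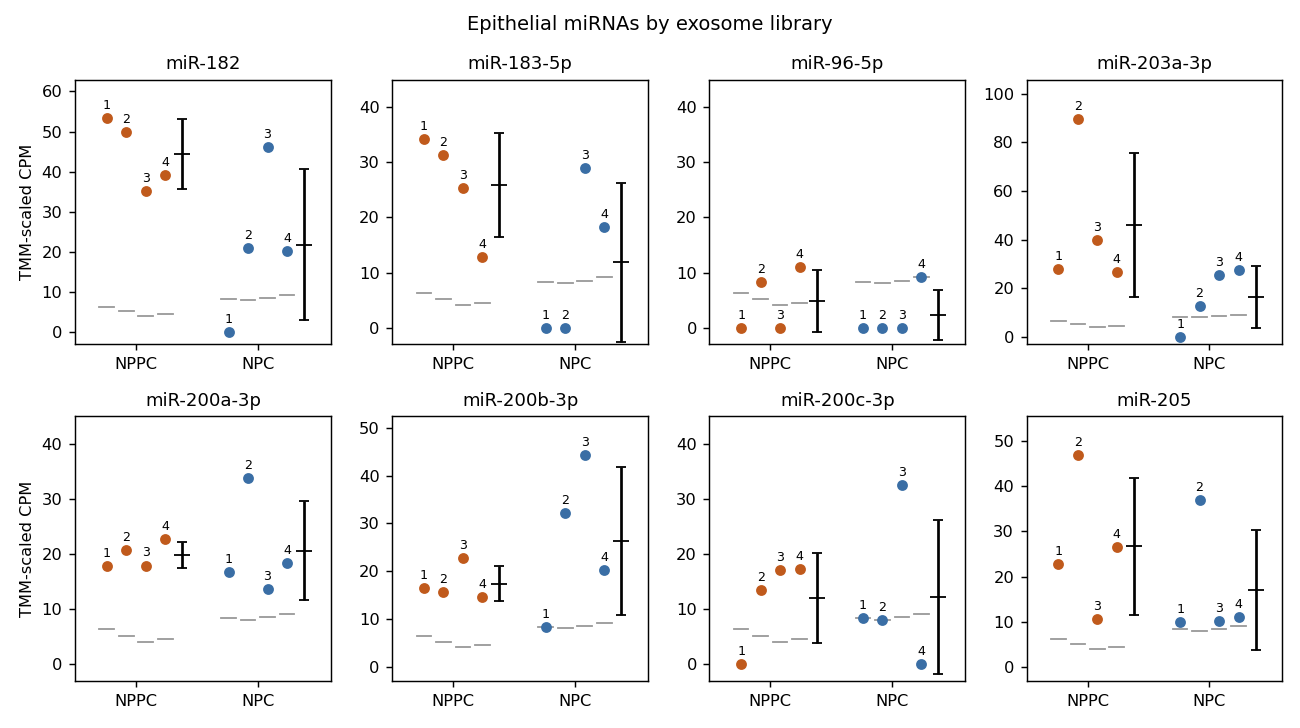
TMM-scaled CPM (vertical, a scale per panel) of each of the 8 members in NPPC libraries (left, orange) and NPC libraries (right, blue), numbered by replicate, with the mean and SD (n = 4) as black bars and the level of 5 counts in each library as grey ticks. In every panel the groups overlap, and points at 0 occur in NPC replicate 1 for miR-182, miR-183-5p, miR-96-5p and miR-203a-3p.

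The miR-200 family shares the Zeb factors as targets. Its member miR-200a-3p had 14, 20, 22 and 25 counts in NPPC replicates 1 to 4, against 10, 21, 8 and 10 counts in NPC replicates 1 to 4. In TMM-scaled levels these were 17.8, 20.8, 17.9 and 22.8 CPM in NPPC, and 16.7, 33.8, 13.7 and 18.4 CPM in NPC libraries. The NPPC values lay within the NPC range, and their SD of 2.44 CPM was below the 4.48 CPM that counting error gives. The log2 fold change was -0.056 ± 0.42 (SE), with a 95% interval from -1.02 to 0.91 and an edgeR adjusted p of 0.944, and it was 0.28 without NPC replicate 2 and -1.22 with a GC correction of each library. That interval holds changes of up to 0.91 upward and -1.02 downward on the log2 scale.

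miR-200b-3p, which neighbours miR-200a in the genome, had 13, 15, 28 and 16 counts in NPPC replicates 1 to 4, against 5, 20, 26 and 11 counts in NPC replicates 1 to 4. Its levels were 14.6 to 22.8 CPM in NPPC and 8.34 to 44.4 CPM in NPC libraries, so the NPPC range lay inside the NPC range. The means were 17.4 ± 3.71 and 26.3 ± 15.5 CPM (SD, n = 4 each), for a log2 fold change of -0.59 ± 0.53 (SE), a 95% interval from -1.82 to 0.64 and an edgeR adjusted p of 0.615. With the GC correction the value was -1.51 (edgeR unadjusted p = 0.0190, adjusted p = 0.501), and without NPC replicate 3 it was -0.24, neither passing.

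miR-200c-3p, from the other locus of the family, had 0, 13, 21 and 19 counts in NPPC libraries and 5, 5, 19 and 0 counts in NPC libraries. Both groups thus held a library listed at 0. The log2 fold change of -0.010 ± 1.20 (SE) had a 95% interval from -2.77 to 2.75 and an edgeR adjusted p of 0.995, and it was 1.07 without NPC replicate 3. Summed over miR-200a-3p, miR-200b-3p and miR-200c-3p, the family stood at 34.3, 50.01, 57.9 and 54.8 CPM in NPPC libraries, against 33.4, 73.9, 90.6 and 38.5 CPM in NPC libraries, with a log2 ratio of group means of -0.26, and of -0.46 without NPC replicate 1. NPC replicates 2 and 3 lay above the NPPC libraries, and NPC replicate 1 below them.

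miR-203a-3p, the miRNA of differentiating keratinocytes, had a log2 fold change of 1.48 in the edgeR fit without a replicate block, above those of the other members there. It had 22, 86, 49 and 29 counts in NPPC replicates 1 to 4, against 0, 8, 15 and 15 counts in NPC replicates 1 to 4. The levels were 27.9, 89.6, 40.0 and 26.5 CPM in NPPC and 0, 12.9, 25.6 and 27.5 CPM in NPC libraries. NPPC replicate 4 lay below NPC replicate 4, so the groups overlapped by that pair. The means were 46.0 ± 29.7 CPM in NPPC and 16.5 ± 12.8 CPM in NPC exosomes (SD, n = 4 each). The log2 fold change was 1.48 ± 0.89 (SE), with a 95% interval from -0.58 to 3.53, an unadjusted p of 0.137 and an edgeR adjusted p of 0.507. It was 0.92 without NPPC replicate 2 and 1.03 without NPC replicate 1, and did not pass in either fit.

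miR-205 had 18, 45, 13 and 29 counts in NPPC replicates 1 to 4, against 6, 23, 6 and 6 counts in NPC replicates 1 to 4. In CPM these were 22.9, 46.9, 10.6 and 26.5 in NPPC libraries, and 10.01, 37.0, 10.3 and 11.0 in NPC libraries. NPPC replicate 2 and NPC replicate 2 were the highest of their groups, and NPPC replicate 3 lay with the low NPC libraries. The means were 26.7 ± 15.1 and 17.1 ± 13.3 CPM (SD, n = 4 each), and the log2 fold change was 0.63 ± 0.64 (SE) with a 95% interval from -0.85 to 2.12 and an edgeR adjusted p of 0.651. Without NPPC replicate 2 it was 0.19, and without NPC replicate 2 it was 1.34.

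NPPC replicate 2 held 136 CPM of miR-203a-3p and miR-205 together, with 50.6 to 53.0 CPM in the other NPPC libraries, and 10.01 to 49.8 CPM in NPC libraries. On this sum the groups did not overlap, by the margin of 50.6 CPM in the lowest NPPC library against 49.8 CPM in the highest NPC library. Scaled by total counts the sum overlapped, at 43.8 to 120.1 CPM in NPPC and 18.2 to 50.1 CPM in NPC libraries. The same library was the highest for the erythrocyte list (miR-451-5p, miR-144-3p, miR-144-5p and miR-486), which summed to 1492 CPM there and to 208 to 458 CPM in the other NPPC libraries, against 378 to 566 CPM in NPC libraries. The part of that difference in the levels of miR-203a-3p and miR-205 was not tested.

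**Figure D3:**
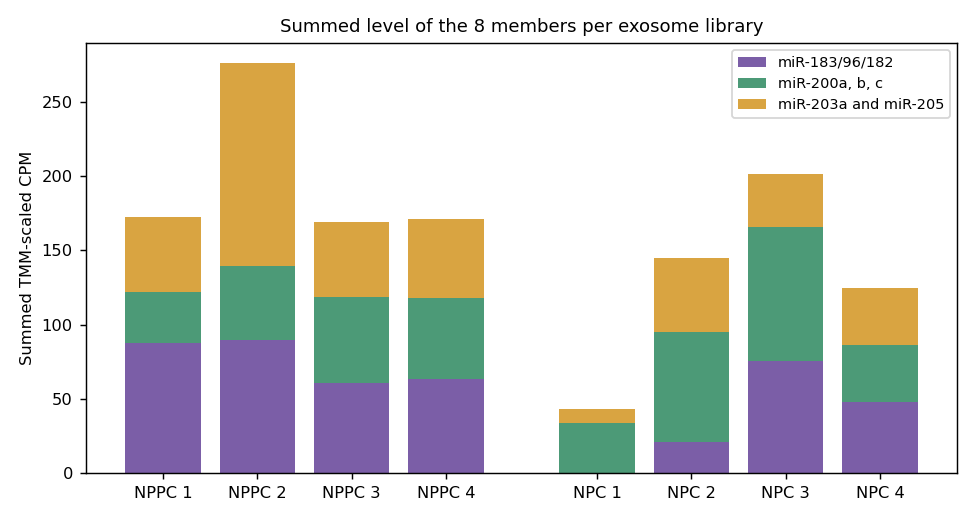
Summed TMM-scaled CPM (vertical) of the 8 members in each library, NPPC replicates on the left and NPC replicates on the right, stacked by the cluster of miR-183, miR-96 and miR-182, the miR-200 family, and miR-203a with miR-205. The sums run from 169 to 276 CPM in NPPC and from 43.4 to 202 CPM in NPC libraries, and NPC replicate 1 shows no cluster segment.

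The makeup of the members also varied between libraries. The cluster gave 50.7%, 32.5%, 35.7% and 36.9% of the member counts in NPPC replicates 1 to 4, against 0%, 14.4%, 37.3% and 38.2% in NPC replicates 1 to 4. NPC replicates 3 and 4 had shares slightly above those of NPPC replicates 2 to 4. The miR-200 family gave 18.1% to 34.3% in NPPC and 30.9% to 76.9% in NPC libraries, the highest share being in NPC replicate 1, where 26 member counts were listed in all.

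Of the 7 members tested, 0 passed an adjusted p of 0.05, and the same holds for 0 of all 444 features tested (0%). At an unadjusted p under 0.05 there were 0 members by edgeR, with 28 features (6.31%) higher in NPPC exosomes and 33 lower. Among the 278 rat names tested, 28 were higher and 7 lower. Some rows repeat the same values, both without and with a rat name (miR-101a-3p and miR-101b-3p, for example). The features, and the rat names among them, are therefore not all separate. By limma-voom 0 members passed either. The DESeq2 Wald test gave an adjusted p for 2 of the 7, miR-182 (0.511) and miR-203a-3p (0.347), and none for the other 5, which therefore could not pass there. At an unadjusted p under 0.05 both tools had 0 members. Every NPPC library lay above every NPC library in 0 members, and in 41 of the features tested (9.23%), 34 of them rat names. The log2 fold change was positive in 4 of the 7 members, with a median of 0.63, against 52% positive and a median of 0.052 over all features tested, and 192 of 278 rat names positive with a median of 0.30. Total count scaling moved the median of all features to -0.35. Under it miR-182 had 0.91 and miR-203a-3p 1.31, and 4 members were positive.

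**Figure D4:**
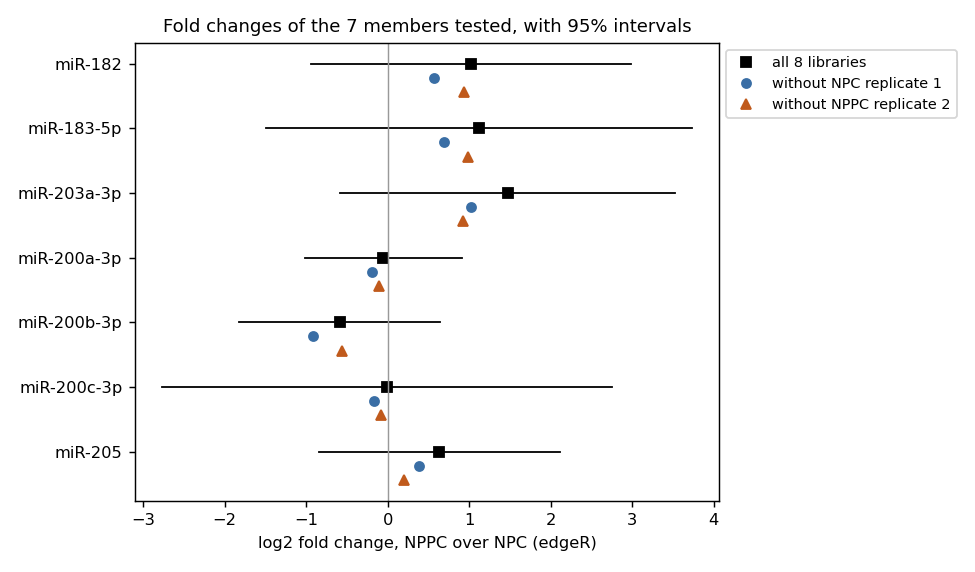
Log2 fold change of NPPC over NPC (horizontal) for the 7 members tested, with squares and lines for the edgeR estimate and its 95% interval from all 8 libraries, circles without NPC replicate 1 and triangles without NPPC replicate 2. Every interval spans 0, and the values of miR-182, miR-183-5p, miR-203a-3p and miR-205 are positive in all 3 fits shown.

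Other miRNAs with an epithelial reputation were present at quite different levels. Of 8 such names 7 had a row, 4 were tested, and 0 passed. The name without a row was miR-205-5p, and the member miR-205 comes from that same arm, so it is not a separate absent miRNA. miR-31a-5p, which is abundant in keratinocytes and also made by fibroblasts, stood at 3966 ± 282 CPM in NPPC and 3021 ± 515 CPM in NPC exosomes (SD, n = 4 each), a log2 fold change of 0.39 with an edgeR adjusted p of 0.318. miR-192-5p, known from gut, liver and kidney epithelium, had 180 ± 16.2 CPM in NPPC and 283 ± 237 CPM in NPC exosomes (SD, n = 4 each), with an adjusted p of 0.580. miR-375-3p, a miRNA of endocrine and gland epithelium, and miR-203b-3p were each listed in 1 library, both times an NPC library. Their means over the 8 libraries were 2.71 and 1.28 CPM, and over the NPC libraries 5.42 ± 10.8 and 2.56 ± 5.13 CPM (SD, n = 4). These means take in the libraries listed at 0, so each rests on 1 library and lies below the level there. Of the remaining names, miR-31a-3p had 83.1 ± 22.6 CPM in NPPC and 35.2 ± 25.0 CPM in NPC exosomes (SD, n = 4 each). Its log2 fold change was 1.24 (edgeR adjusted p = 0.574). miR-194-5p had 179 ± 4.75 and 204 ± 128 CPM, with -0.19 (edgeR adjusted p = 0.827). miR-215 had 6.90 and 10.2 CPM and was not tested. The opposite arms of the member hairpins, 10 names, matched no row and were not analysed here.

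The lists for other cell types likewise held 0 members that passed by edgeR. In the mesenchymal list miR-199a-3p had 75675 ± 6629 CPM in NPPC and 64551 ± 27182 CPM in NPC exosomes, and miR-199a-5p had 66002 ± 2624 and 66045 ± 412 CPM (SD, n = 4 each). miR-145-5p of that list, named after its values were seen, had 774 ± 28.6 CPM in NPPC and 573 ± 56.6 CPM in NPC exosomes (SD, n = 4 each) with no overlap of the groups. Its log2 fold change of 0.43 had an unadjusted p of 0.0206 and an edgeR adjusted p of 0.286. Of the leukocyte list, summed to 85.9 to 180 CPM in NPPC and 16.7 to 207 CPM in NPC libraries, miR-142-5p had a log2 fold change of -0.34 and miR-150-5p of -0.14. That sum leaves out miR-223-3p, which matched no rat-named row. A row named after mouse miR-223-3p had a log2 fold change of 0.12 (edgeR adjusted p = 0.944). Of the erythrocyte list miR-486 had -0.39 and miR-451-5p 1.40. The neural and sensory list summed to 2116 to 2543 CPM in NPPC and 717 to 2283 CPM in NPC libraries, with log2 fold changes of 0.88 for miR-7a-5p and -0.087 for miR-128-3p. Its neuron-defining miR-124-3p was listed at 0 in all libraries but 1, an NPC library. In contrast, miR-9a-5p of that list was listed in 7 libraries. It had 58.8 ± 24.4 CPM in NPPC and 34.8 ± 34.2 CPM in NPC exosomes (SD, n = 4 each). The log2 fold change of miR-9a-5p was 0.76 (edgeR adjusted p = 0.699), and miR-9a-3p matched no row. The endothelial list summed to 475 to 716 CPM in NPPC and 249 to 735 CPM in NPC libraries, with miR-126a-3p at -0.029 and miR-126a-5p at 0.43. The part of such cells in the levels of the epithelial members was not tested.

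Among 271 other rat names tested, those most like miR-182 over the 8 libraries by Pearson correlation of log2 CPM were miR-379-3p (0.991), miR-335 (0.986), miR-362-3p (0.982), miR-379-5p (0.981) and miR-10b-5p (0.980). Without NPC replicate 1 the correlations were 0.955, 0.897, 0.832, 0.822 and 0.816 in this order. These were the highest of many, and the libraries share depth and the low values of NPC replicate 1. miR-379-3p averaged 84.1 CPM in NPPC and 44.1 CPM in NPC exosomes, a log2 fold change of 0.93 that did not pass (edgeR adjusted p = 0.504).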

How the data were processed

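Per the labels' protocols, exosome RNA was isolated with a kit and made into TruSeq small RNA libraries. The submitters' processing notes name CASAVA 1.8. The sources used here give no aligner, miRBase version or genome build. For each miRNA row the authors' table holds deposited estimated counts, 82.3% of 5804 values above 0 being whole within 1e-09. A scaled signal, which the authors deposited beside them, was not used. After summing, 364 of 5578 values above 0 were under 5.

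Rat rows were summed per mature name and other rows kept, giving 1472 features. Estimated counts were rounded. The test was the two-sided quasi-likelihood test of edgeR 4.0.16 (R 4.3.3) with TMM factors, filterByExpr and group as the only term, adjusted by Benjamini-Hochberg over 444 features at a threshold of 0.05. SE is the log2 fold change over the root of F, and the prior count of log2 CPM was 2. The edgeR test was also run on simulated data drawn over all features that passed the filter. Its outcome is not given here and does not speak for the low counts of the members. All 10 member names were reported, the 5 names most like the most abundant member, and the 2 most abundant names of each list. Further names of some lists were given beside them, outside that rule. Members and lists were chosen with earlier results of these data known. Alternatives used DESeq2 1.42.0, limma 3.58.1, other scalings, filters and sums, a replicate block, a GC correction (loess span 0.75) and each library left out. Figures used matplotlib 3.10.9. Intervals cover the spread between libraries.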

Additional observations from a re-analysis of the deposited data

Results flagged for a closer look

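Of 24 groups of 4 libraries examined for the members and their sums, 4 had a highest or lowest library set well apart from the rest. The cutoff is meant to flag about 1 group in 20 of independent values. These groups hold low counts with zeros and sums of the same members, so that rate cannot be applied to them. The summed level of the 8 members was 276 CPM in NPPC replicate 2, with the other NPPC libraries at 169 to 173 CPM. The sum of miR-203a-3p and miR-205 was 136 CPM in NPPC replicate 2, with the others at 50.6 to 53.0 CPM, and is part of the first. miR-205 stood at 37.0 CPM in NPC replicate 2, with the other NPC libraries at 10.01 to 11.0 CPM. miR-96-5p stood at 9.18 CPM in NPC replicate 4, which is 5 counts, and was listed at 0 in the other NPC libraries.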

How the results depend on the processing

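Over the 19 alternatives 0 members passed, where the DESeq2 Wald test gave an adjusted p for 2 of the 7 members only, and with a library left out the number ran from 0 to 0. The log2 fold changes of miR-182, miR-183-5p, miR-203a-3p and miR-205 stayed positive and that of miR-200b-3p negative under each alternative, with ranges of 0.57 to 1.93, 0.69 to 2.43, 0.92 to 2.13, 0.19 to 1.34 and -1.51 to -0.24. The highest of the first 3 came from limma-voom. miR-200a-3p turned to 0.015 with the replicate block, 0.0047 without NPPC replicate 1 and 0.28 without NPC replicate 2. miR-200c-3p turned to 0.046 with no filter, 0.29 with limma-voom, 0.052 with the replicate block, 0.397 without NPPC replicate 1 and 1.07 without NPC replicate 3, and was not tested without NPPC replicate 3. With a library left out it ran from -0.44 to 1.07. The causes were not tested. The number of all features past the threshold was 0, and became 1 with upper-quartile factors, DESeq2 size factors, limma-voom, total count scaling, rat names only, the GC correction and the GC correction with the replicate block, 2 with no filter, 10 with the DESeq2 Wald test, and 0 to 2 with a library left out, 2 being without NPC replicate 1. With the replicate block it was 0, with 70 features at an unadjusted p under 0.05 against 61 without the block. Replicate numbers are not stated to pair libraries, so the block was used as an alternative only. Same-numbered libraries had correlations of their deviations of 0.573, 0.156, 0.221 and 0.0351. Among same-numbered libraries, only those numbered 1 were each other's best match. These few values cannot decide whether the libraries are paired. Member counts of 86 or fewer limit the precision of each value.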

Other observations

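Among rows outside the member names, 1 was named after a monkey miR-205 hairpin and lay on chromosome 7 of the deposited table, where rat miR-205 lies on chromosome 13. It had 0, 12, 12 and 12 counts in NPPC replicates 1 to 4, against 0, 8, 11 and 6 counts in NPC replicates 1 to 4. Another was named after a chimpanzee miR-203 hairpin and lay on chromosome 10, where rat miR-203a lies on chromosome 6, with 5 counts in NPPC replicate 2 and 0 in the other libraries. Neither was counted as a member.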
